A study of Homo sapiens with 6 samples.

Results

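Long intergenic noncoding RNAs (lincRNAs) are transcripts of genes that lie between protein-coding genes and that are not translated into a known protein. The lincRNAs described here were selected on their level in the libraries themselves: the deposited gene type was lincRNA and the mean FPKM (fragments per kilobase of gene model, scaled to the library's reads) over the 6 libraries was at least 1. Of 3740 lincRNAs in the FPKM table of 31951 genes, 255 met this rule (6.82%). The level is therefore a description and was not tested, whereas the comparison between the 2 groups of libraries took no part in the selection.

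The libraries came from A549, an established human lung adenocarcinoma cell line. In the APEX1-OE group (3 libraries) the cells were transiently transfected with the pIRES-hrGFP-1a plasmid carrying APEX1, the main enzyme that cuts DNA at abasic sites and a redox activator of transcription factors, with a FLAG tag at the 3′ end. In the Ctrl group (3 libraries) the cells received the control plasmid, so both groups were transfected cells of a single line, and no source used here says that the replicates were separate cultures. P-values accordingly measure the spread between these libraries, and in bulk RNA fewer cells with a transcript cannot be told apart from less RNA per cell. RNA was selected for polyadenylated molecules, which leaves transcripts without a poly(A) tail to be captured only in part.

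Many lincRNAs act in the nucleus, where NEAT1 builds paraspeckles with proteins such as NONO and SFPQ and MALAT1 gathers at splicing speckles. Others act in the cytoplasm, where NORAD holds the Pumilio proteins, or serve as hosts whose introns or exons carry small nucleolar RNAs (snoRNAs) or microRNAs (miRNAs). Several lincRNAs are induced by p53 or by stress, and lincRNA transcripts are in general less abundant than mRNAs and more often kept in the nucleus.

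The sequences of 4 of the 15 Pumilio-type elements of NORAD are given first, since these elements set it apart from the other members in sequence. NORAD was also among the 67 tested members whose highest library, by normalized count, was at least 2 times the lowest. NORAD, listed under its older symbol LINC00657 (ENSG00000260032.1), lies on the minus strand at chr20:36045618-36051018 of GRCh38 as a single exon of 5401 bases. The letters TGTANATA were searched on the strand of the transcript, overlaps included, and are in capitals below, 5′ to 3′. The first element is at chr20:36050184-36050209, the fourth at chr20:36049503-36049528, the eleventh at chr20:36047973-36047998 and the fifteenth at chr20:36046346-36046371.
NORAD element 1: gaaggcctgTGTATATAatatgaaaa
NORAD element 4: acttatctgTGTATATAgtgtacata
NORAD element 11: accctactgTGTATATAgcggacaaa
NORAD element 15: tagcctattTGTAAATAcctttgtta
Of the 240 members with exon sequence in GENCODE release 44, 52 held at least 1 match (21.7%) and 5 held at least 5. NORAD had 2.78 matches per kilobase. JPX, a lincRNA of the X-inactivation centre, came next by number with 8 matches in 22568 bases.

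The hosted miRNAs follow, because the host transcript is what these libraries measured and the miRNA is what the host is named for. Exons or introns of 13 members held an annotated miRNA. The mature sequences are from RefSeq (GRCh38), with the seed, bases 2 to 8, in capitals.
hsa-miR-4435: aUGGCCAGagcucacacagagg
hsa-miR-193b-3p: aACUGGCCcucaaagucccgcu
hsa-miR-365a-3p: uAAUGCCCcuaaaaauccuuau
hsa-miR-23a-3p: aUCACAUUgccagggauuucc
hsa-miR-27a-3p: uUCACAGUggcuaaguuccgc
hsa-miR-24-3p: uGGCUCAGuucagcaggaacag
hsa-miR-22-3p: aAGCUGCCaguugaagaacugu
hsa-let-7i-5p: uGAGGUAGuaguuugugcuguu
hsa-miR-210-3p: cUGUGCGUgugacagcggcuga
The same mature miR-4435 lies in LINC00152 (CYTOR) at chr2:87629764-87629785 on the plus strand and in MIR4435-2HG at chr2:111321061-111321082 on the minus strand. None of the 9 seeds printed was shared by 2 different miRNAs.

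The lincRNAs were mostly low. Of the 3740, 2571 had a mean FPKM under 0.1 and 914 a mean from 0.1 to under 1. Among the 255 members the median was 2.04 FPKM, against 6.94 FPKM in the 10274 protein-coding genes selected at the same level. A mean of at least 2 FPKM was reached by 128 members, at least 5 by 54, at least 10 by 14 and at least 50 by 2. At the boundary, RP1-150O5.3 stood at 1.01 FPKM and RP11-134G8.5 and CITF22-92A6.1 at 1.00, whereas RP11-638I2.6 at 0.998 and RP11-147L13.13 at 0.990 fell outside.

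In GENCODE release 44, 240 of the 255 identifiers were found, and 225 of these were typed lncRNA. The annotation had moved 8 members to protein-coding, among them LINC00998, now SMIM30 (mean 7.95 FPKM), a gene for a small membrane protein, and C14orf132 (2.13 FPKM). A further 6 were typed as transcribed pseudogenes, and BCYRN1 as a small cytoplasmic RNA. The members that were found had a median exon length of 2270 bases against 5282 bases in the tested protein-coding genes, and 73 had a single exon block. Their median GC content was 49.8%, with a range from 28.6% to 69.8%. On the opposite strand, 53 members overlapped exons of a protein-coding gene, 15 did so on the same strand, and 36 started within 1000 bp of the start of a protein-coding gene in the head-to-head orientation. No source used here says whether counting used strand, so reads of these overlapping pairs may not have been separated.

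The libraries themselves fell into a division that no label names. The first principal component over all tested genes held 72.6% of the variance and put APEX1-OE replicate 1 with the Ctrl replicates 1 and 2 on its first side. Its second side held Ctrl replicate 3 together with the replicates 2 and 3 of APEX1-OE. For the members described below as ordered by this division, log2 differences within each side, or the fit with the side as a term, are given too. It was defined from these data, so it describes the libraries and is not a batch of the study. For the same reason, p-values from fits with the side as a term are descriptions and not valid tests.

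The members took between 0.206% and 0.259% of all counts, which summed to between 28131955 and 41009197 per library, and their FPKM summed to between 1034 and 1076 per library. By deposited count, NEAT1 alone made up 11.5% of the members' counts, NORAD 8.64%, SNHG8 3.05% and MALAT1 2.73%. Below, the 3 values of a group are in the order of its replicates 1, 2 and 3, and CPM are read counts scaled to library size with TMM factors.

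SNHG8, host of the snoRNA SNORA24, had the highest level per length. Its FPKM was 87.4, 84.3 and 88.4 in APEX1-OE and 93.1, 83.0 and 83.3 in Ctrl. SNHG19, host of SNORD60, came next at 78.4, 58.8 and 69.0 FPKM in APEX1-OE and 82.0, 82.7 and 68.7 FPKM in Ctrl. The values of both genes overlapped between the groups, and the 3 highest SNHG19 values were those of the first side. The AC006262.5 gene (IGFL2-AS1) followed at a mean of 35.7 FPKM and NORAD at 29.7 FPKM. In NORAD the FPKM was 14.8, 39.4 and 41.4 in APEX1-OE and 20.3, 20.7 and 41.4 in Ctrl, so that 2 APEX1-OE libraries and 1 Ctrl library stood at about the same high level and the remaining 3 below it.

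The other members among the 15 highest had means between 9.91 and 20.5 FPKM. They were TP53TG1, RP11-620J15.3 (GIHCG), RP11-14N7.2 (LINC02802), LINC00973, LINC00152 (CYTOR), RP11-554I8.2 (LINP1, which takes part in DNA end joining), RP11-462L8.1 (ITGB1-DT), AC006273.5 (LINC01836), SNHG15, LINC00339 and RP5-875H18.9. Neighbours in this order from CYTOR (11.6 FPKM) to RP5-875H18.9 (9.91 FPKM) overlapped in their library values.

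**Figure D1:**
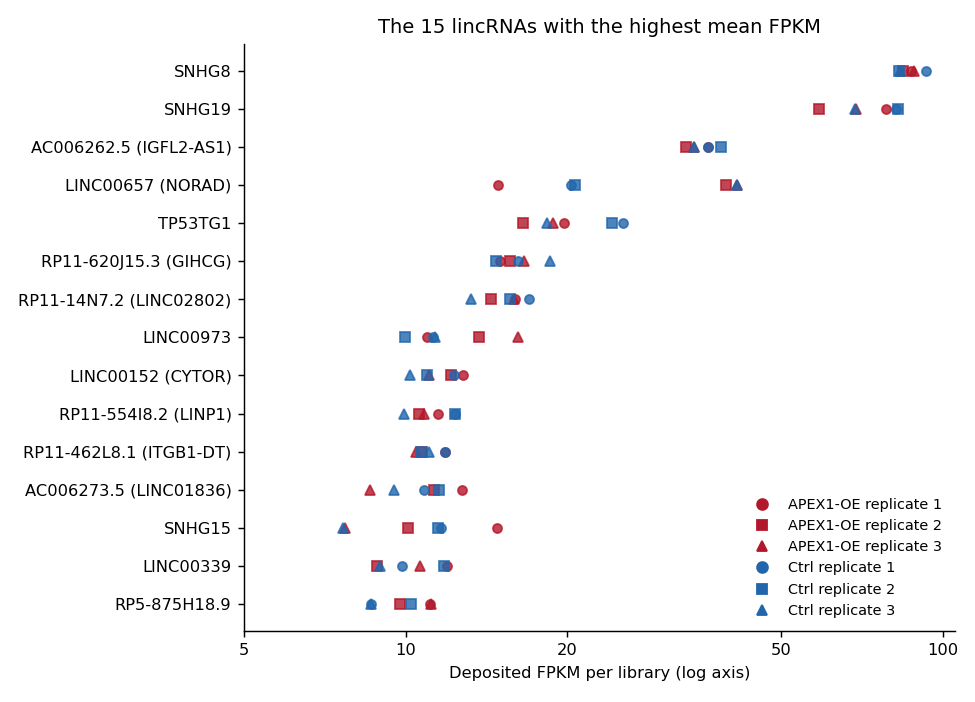
Deposited FPKM (log axis) of the 15 lincRNAs with the highest mean, with a point for each library, APEX1-OE in red and Ctrl in blue. SNHG8 and SNHG19 lie highest, and the NORAD points fall into a group of 3 libraries near 40 FPKM and a group of 3 near 15 to 21 FPKM, each with both colours.

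A level per length depends on the gene model that the authors used. The members had a median of 49.3 counts per FPKM, a ratio that rises with the length of that model. It was 27.9 for SNHG8, 377 for MALAT1 and 967 for NEAT1. BCYRN1 (BC200), a small RNA polymerase III transcript of 200 bases in GENCODE release 44, had 541 counts per FPKM, above MALAT1 with its 10434 bases, so its deposited model was longer than the small RNA. SNHG8 has 6614 exon bases in release 44, but a ratio below that of the median member.

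APEX1 itself checked the labels. Its FPKM was 617.5, 680.3 and 768 in APEX1-OE against 129, 126 and 124 in Ctrl, and the fitted log2 fold change was 2.42 (SE 0.171, adjusted p = 0.00809, edgeR quasi-likelihood test). The plasmid transcript and the chromosomal gene were not separated in this value. The epithelial keratins KRT8 and KRT18 had means of 3046 and 2464 FPKM. Among the 7 alveolar type II markers listed, SFTPB, SFTPC and NKX2-1 stood under 0.1 FPKM. That list was not absent as a whole: it summed to between 17.2 and 20.4 FPKM per library, and 3 of its genes had enough counts to be tested. Markers of other cell types summed to between 1.61 and 2.23 FPKM per library, most of it CD68, with VWF and CD3E listed at 0 in 5 of 6 libraries each.

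Of the 255 members, 254 passed the filter on low counts and were tested, the exception being CH507-513H4.5. No member passed an adjusted p of 0.05 in edgeR, where 1 gene of all 16971 tested did (0.00589%), namely APEX1. DESeq2, the edgeR likelihood ratio test and limma-voom called no member either. At an unadjusted p under 0.05 there was 1 member, NEAT1, which is 0.394% of the members against 0.695% of all genes tested. This count moved with the libraries, as did that over all genes tested. Without APEX1-OE replicate 1 it was 14 of 254 members, beside 1324 of 17409 genes. Without Ctrl replicate 3 it was 5 of 254, beside 595 of 17150 genes. Leaving out APEX1-OE replicate 2 gave 3 of 254 (66 of 17227 genes) and APEX1-OE replicate 3 also 3 of 254 (150 of 17214 genes). Leaving out Ctrl replicate 2 gave 2 of 255 (73 of 17409 genes) and Ctrl replicate 1 gave 1 of 255 (81 of 17400 genes). With the side of the principal component as a term it was 18 of 254 members, beside 1973 of 16971 genes. The fitted log2 fold changes ran from -1.88 to 1.45, with a median of 0.01 against 0.03 over all genes and a median SE of 0.269. In 184 members the fitted change was under 0.25 in size, and in 17 it was at least 0.5. These estimates leave changes of the size of the SE, and clearly larger ones, undetectable in single lincRNAs. NEAT1, with a fitted change of 0.69 and an SE of 0.263, was not called.

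**Figure D2:**
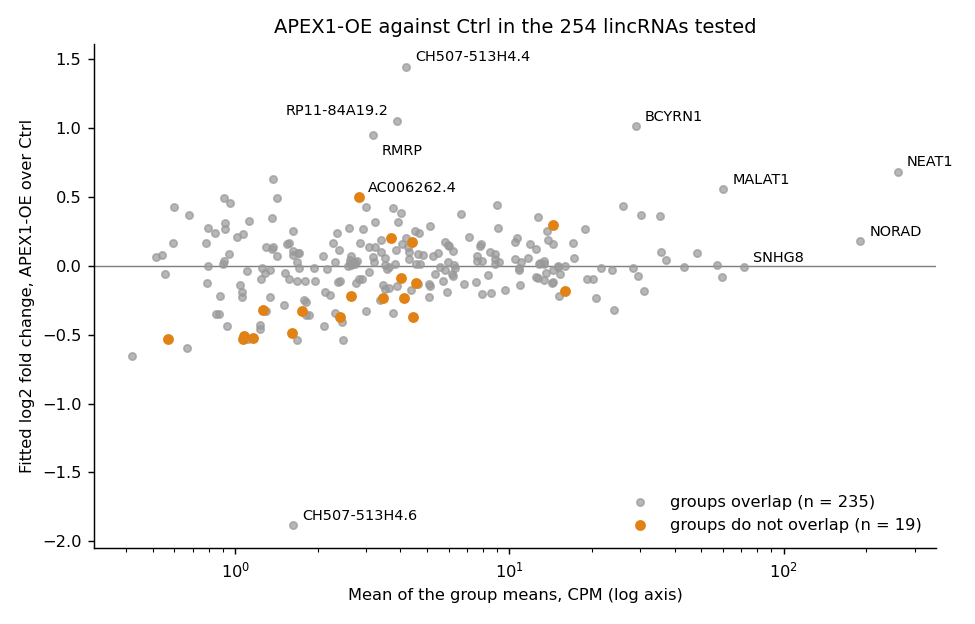
Fitted log2 fold change (APEX1-OE over Ctrl) of the 254 lincRNAs tested against their mean CPM (log axis), with the members whose libraries do not overlap between the groups in orange. Most points lie within 0.25 of 0, and the 2 extremes, CH507-513H4.4 at 1.45 and CH507-513H4.6 at -1.88, have overlapping groups.

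NEAT1, the architectural RNA of paraspeckles, lies at chr11:65422774-65445540 on the plus strand. Its normalized level was 254.3, 287 and 422 CPM in APEX1-OE and 169, 175 and 254.8 CPM in Ctrl. The APEX1-OE libraries averaged 321 ± 89.2 CPM and the Ctrl libraries 199.6 ± 47.8 CPM (SD, n = 3 each). Replicates 2 and 3 of APEX1-OE were higher than every Ctrl library, and APEX1-OE replicate 1 was level with Ctrl replicate 3. The fitted log2 fold change was 0.69 (SE 0.263, unadjusted p = 0.0319, adjusted p = 1.00 in edgeR).

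NEAT1 was also ordered by the division of the libraries, the 3 libraries of the second side being its highest. Within the first side the log2 difference in NEAT1 between APEX1-OE and Ctrl was 0.56 and within the second side 0.45. With the side as a term the change was 0.52 (SE 0.122, unadjusted p = 0.000742, adjusted p = 0.302 in edgeR).

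MALAT1, the neighbour of NEAT1 at chr11:65497640-65508073, stood at 47.9, 73.3 and 94.3 CPM in APEX1-OE and at 32.8, 34.3 and 79.1 CPM in Ctrl. Ctrl replicate 3 exceeded 2 of the APEX1-OE libraries, and the fitted log2 fold change was 0.56 (SE 0.401, unadjusted p = 0.202). Within the first and second side the log2 difference was 0.51 and 0.07. In NORAD the levels were 109, 246 and 251 CPM in APEX1-OE and 138, 142 and 256 CPM in Ctrl, a fitted change of 0.18 (SE 0.375) that turned to -0.36 and -0.04 within the sides. The 2 sides did not overlap in NORAD, whereas the APEX1-OE and Ctrl groups did.

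NEAT1, MALAT1 and NORAD together made up 16.7%, 25.6% and 31.3% of the members' counts in APEX1-OE and 15.8%, 16.2% and 25.9% in Ctrl. The 3 libraries of the second side were again the highest. The stretch of 30 bases with most A in NEAT1 and in MALAT1 is shown with A in capitals, since poly(A) selection can hold on to A-rich stretches. The NEAT1 stretch begins at base 18069 of its 22767 exon bases (chr11:65440842-65440871) and the MALAT1 stretch at base 2143 of 10434 (chr11:65499782-65499811).
NEAT1: cAAAAAAAAAAAAAAAAAAAAAAccAAgAA
MALAT1: AgAAgAAAAAAgAcAAgctAggAAAcAAAA
Of the 30 bases, 26 were A in NEAT1 and 20 in MALAT1. The longest unbroken run of A was 22 bases in NEAT1 and 13 in MALAT1, where it lay outside the stretch shown. The part of such stretches in the capture of these transcripts was not tested.

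Of the proteins that act on nuclear lincRNAs, none passed the test. Paraspeckle proteins were called in 0 of 34 (median log2 fold change 0.10, unadjusted p under 0.05 in none), components of the nuclear RNA exosome and its targeting complexes in 0 of 23 (median 0.12) and nonsense-mediated decay factors in 0 of 21 (median 0.14), against a median of 0.03 over all genes. NONO, which binds NEAT1 in the paraspeckle, averaged 477 ± 4.24 CPM in APEX1-OE against 489.9 ± 21.2 CPM in Ctrl (SD, n = 3 each). SFPQ, its partner, had 152 ± 31.5 and 139 ± 20.5 CPM, and PSPC1 30.4 ± 6.47 and 29.9 ± 4.61 CPM. The helicase MTREX, which feeds RNA to the nuclear exosome, had a fitted change of 0.40 (SE 0.392) and the nuclease EXOSC10 one of 0.07 (SE 0.197). For UPF1 and SMG5 of nonsense-mediated decay the fitted changes were 0.14 and 0.20, each below its SE.

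**Figure D3:**
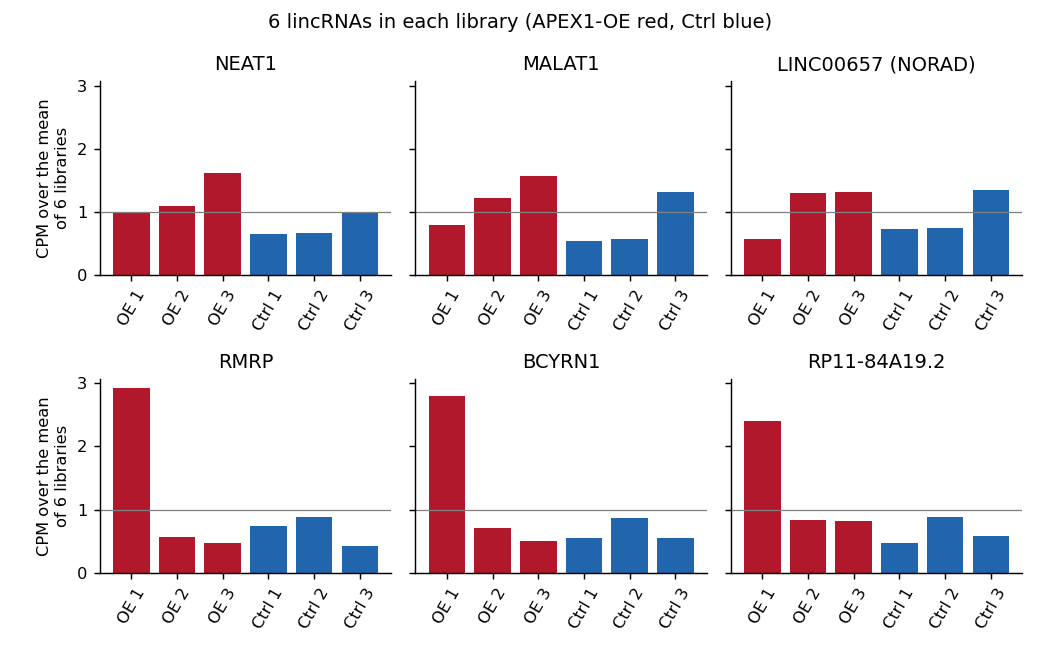
Normalized level of 6 lincRNAs in each library, as CPM divided by the mean of the 6 libraries, with APEX1-OE in red and Ctrl in blue. NORAD is high in APEX1-OE replicates 2 and 3 and Ctrl replicate 3, NEAT1 and MALAT1 are highest in APEX1-OE replicate 3, and RMRP, BCYRN1 and RP11-84A19.2 stand out in APEX1-OE replicate 1.

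Several of the largest positive fits rested on a single library. RMRP, the RNA of the RNase MRP ribonucleoprotein, had counts of 245, 77 and 56 in APEX1-OE and of 63, 92 and 52 in Ctrl. For BCYRN1 they were 2128, 865 and 545 in APEX1-OE and 432, 828 and 629 in Ctrl. For RP11-84A19.2 they were 247, 139 and 118 in APEX1-OE and 49, 113 and 90 in Ctrl.

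In each of these members APEX1-OE replicate 1 was the highest library, and the groups overlapped in RMRP and BCYRN1 through the other APEX1-OE libraries. RP11-84A19.2, at 9.38, 3.27 and 3.17 CPM in APEX1-OE and 1.82, 3.43 and 2.29 CPM in Ctrl, overlapped through Ctrl replicate 2. The fitted log2 fold changes were 0.95 (SE 0.699) for RMRP, 1.01 (SE 0.611) for BCYRN1 and 1.05 (SE 0.479, unadjusted p = 0.0595) for RP11-84A19.2. Without APEX1-OE replicate 1 they became -0.38, -0.14 and 0.34, so the fitted direction of RMRP and BCYRN1 turned. Within the second side, which does not hold that library, the log2 difference was 0.32 in RMRP, 0.11 in BCYRN1 and 0.49 in RP11-84A19.2, and within the first side 1.86, 2.01 and 1.91. With the side as a term the change was 1.25 in RMRP (unadjusted p = 0.000314, adjusted p = 0.184 in edgeR), 1.08 in BCYRN1 (unadjusted p = 0.106) and 1.21 in RP11-84A19.2 (unadjusted p = 0.000448, adjusted p = 0.238). BCYRN1 is related to Alu repeats, and small RNAs of this kind share sequence with many near copies. The authors counted uniquely mapped reads, so the count of BCYRN1 is uncertain.

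The widest fitted values belonged to 3 members of chromosome 21 that lie in repeated ribosomal DNA units. CH507-513H4.4 (chr21:8393419-8394341), CH507-513H4.5 (chr21:8254592-8255514) and CH507-513H4.6 (chr21:8210384-8211306) each have 923 exon bases. CH507-513H4.4 and CH507-513H4.6 were identical at all 923 positions, and CH507-513H4.5 matched each of them at 920 (99.6% of the alignment). The counts of CH507-513H4.4 were 485, 3 and 0 in APEX1-OE and 10, 204 and 4 in Ctrl.

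CH507-513H4.6 had 0, 85 and 0 counts in APEX1-OE and 0, 23 and 277 in Ctrl, and CH507-513H4.5 had 216, 9 and 10 in APEX1-OE and 0, 1 and 3 in Ctrl. The copy with most reads thus changed from library to library without following the groups. Summed over the copies there were 701, 97 and 10 counts in APEX1-OE and 10, 228 and 284 in Ctrl, so the sums also ranged widely within each group. The authors counted uniquely mapped reads, and no source used here explains how reads were placed among identical copies. These 3 genes are therefore reported as uncertain. The fitted changes of 1.45 (SE 1.94) for CH507-513H4.4 and -1.88 (SE 1.63) for CH507-513H4.6 were within their errors.

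**Figure D4:**
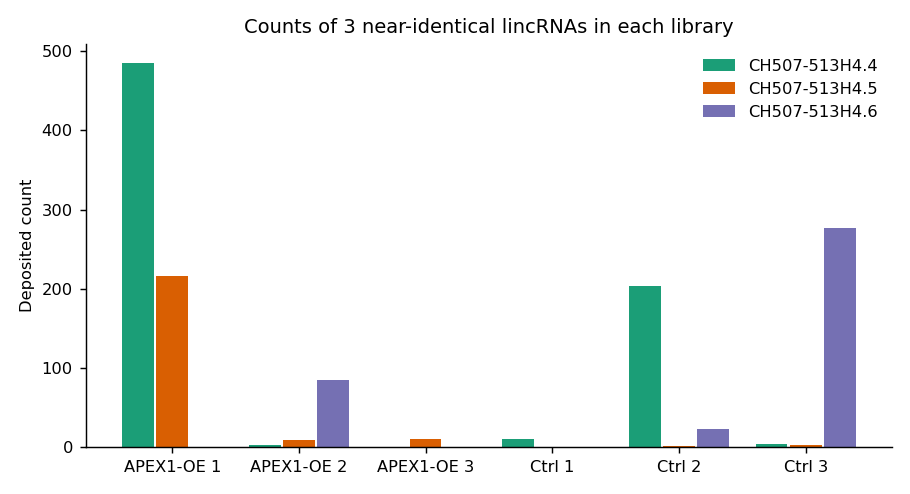
Deposited counts of the 3 near-identical chromosome 21 lincRNAs in each library (bars). CH507-513H4.4 leads in APEX1-OE replicate 1 and Ctrl replicate 2 with 485 and 204 counts, and CH507-513H4.6 leads in Ctrl replicate 3 with 277.

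A similar pair is LINC00152 (CYTOR) and MIR4435-2HG on chromosome 2, of which 61.1% of the 31-base words of CYTOR also occur in the MIR4435-2HG exons. CYTOR counts were 1165, 1506 and 1167 in APEX1-OE and 1047, 1165 and 1154 in Ctrl. Those of MIR4435-2HG were 1854, 2279 and 1782 in APEX1-OE and 1683, 2025 and 1847 in Ctrl. Summed, the pair averaged 94.4 ± 18.2 CPM in APEX1-OE against 91.6 ± 13.3 CPM in Ctrl (SD, n = 3 each), a difference smaller than the spread between libraries.

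In 4 members the groups did not overlap and APEX1-OE was higher (1.57% of those tested, against 1.38% of all genes). In 15 members they did not overlap and APEX1-OE was lower (5.91%, against 2.01% of all genes). The share lower without overlap was 3.18% in the antisense genes and 1.15% in the protein-coding genes of the same minimum level, and 4.86% in the 823 lincRNAs tested at any level. The split depended on the scaling: with DESeq2 size factors 9 were higher and 10 lower (3.54% and 3.94%, against 1.55% and 1.74% of all genes), and with upper-quartile scaling 2 and 19 (0.787% and 7.48%, against 0.996% and 3.22%). With library totals 6 were higher and 14 lower (2.36% and 5.51%, against 1.04% and 2.82%), and with the deposited FPKM 5 and 12 (1.97% and 4.72%, against 1.19% and 1.77%). The unadjusted p of the 15 ranged from 0.0848 to 0.691 in edgeR.

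The largest positive fit among the 4 was that of AC006262.4, an unnamed lincRNA at chr19:46163893-46180647 near the IGFL genes. It stood at 4.14, 3.01 and 2.80 CPM in APEX1-OE and 2.68, 2.55 and 1.81 CPM in Ctrl, a fitted change of 0.50 (SE 0.272, unadjusted p = 0.104). Within the first and second side the log2 difference was 0.66 and 0.68. LINC00973 had 14.5, 15.4 and 17.6 CPM in APEX1-OE and 13.7, 12.4 and 12.6 CPM in Ctrl, a fitted change of 0.30 (SE 0.212). LINC01133 and LINC01123 followed with 0.20 and 0.17, each below its SE.

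The 8 largest negative fits among the 15 were those of RP1-150O5.3, RP11-275N1.1 (LINC02643), CTD-2538C1.2 (NUDT19-DT), C17orf100, RP4-665J23.1 (LINC02609), LINC01003, LINC01521 and RP13-516M14.1, with fitted changes between -0.53 and -0.33. Most were low. RP1-150O5.3 had 13, 20 and 16 counts in APEX1-OE and 17, 28 and 21 in Ctrl. NUDT19-DT, which starts 57 bp from NUDT19 in the head-to-head orientation, had 34, 33 and 30 counts in APEX1-OE and 37, 44 and 54 in Ctrl. LINC01521 had the highest CPM of these 8, at 3.49, 4.19 and 3.90 CPM in APEX1-OE and 4.61, 5.37 and 5.02 CPM in Ctrl (fitted change -0.37, SE 0.218). In C17orf100, a member now typed protein-coding, the counts were 19, 45 and 32 in APEX1-OE and 35, 47 and 42 in Ctrl (fitted change -0.51, SE 0.269).

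Of the snoRNA hosts fixed as a list, 6 were members: SNHG8, SNHG9, SNHG15, SNHG19, SNHG25 and RP11-1094M14.11 (SNHG30). By annotation, 7 members held a snoRNA. None of the 6 listed hosts passed the test. Their median fitted change was -0.09, with 2 higher and 4 lower in APEX1-OE. In CPM, all 6 had APEX1-OE replicates 2 and 3 and Ctrl replicate 3 below the other libraries. This order was found in 28.7% of the members and 30.9% of all genes tested. The deposited FPKM of SNHG8, given above, did not keep it. With the side as a term 3 were fitted higher (SNHG8 at 0.07, SNHG15 at 0.34 and SNHG25 at 0.17) and 3 lower (SNHG19 at -0.04, SNHG30 at -0.13 and SNHG9 at -0.25). The smallest unadjusted p of these 6 fits was 0.0115, in SNHG15 (adjusted p = 0.364, edgeR). SNHG15, host of SNORA9, had 74.3, 42.9 and 31.9 CPM in APEX1-OE and 53.6, 53.9 and 32.2 CPM in Ctrl, so APEX1-OE replicate 1 was highest and the replicate 3 libraries of both groups were lowest. SNHG9, host of SNORA78, ranged from 1.25 to 3.58 CPM, with a fitted change of -0.41 (SE 0.378). In SNHG8 the groups had 71.5 ± 8.28 and 71.9 ± 7.32 CPM (SD, n = 3).

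Of the miRNA hosts fixed as a list, 5 were members, and none passed the test (median fitted change 0.01). MIR22HG, which carries miR-22, had 14.0, 15.1 and 16.6 CPM in APEX1-OE and 13.2, 12.8 and 14.8 CPM in Ctrl. MIR210HG, whose miRNA is the best known of those induced by hypoxia, had a fitted change of -0.13 (SE 0.244), and RP11-65J21.3 (MIR193BHG, with miR-193b and miR-365a) of 0.01 (SE 0.222). CTD-3252C9.4 (MIR23AHG, with miR-23a, miR-27a and miR-24) had a mean of 4.73 FPKM and RP11-631N16.4, which overlaps let-7i, 2.82 FPKM. Mature miRNAs were not measured in these libraries.

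Among the p53-responsive lincRNAs, NEAT1, TP53TG1, LINC01021 (PURPL) and RP3-326I13.1 (PINCR) were members. TP53TG1 had 25.8, 18.3 and 20.2 CPM in APEX1-OE and 30.5, 29.6 and 20.05 CPM in Ctrl, a fitted change of -0.32 (SE 0.255), and PURPL 9.15, 14.8 and 18.7 CPM in APEX1-OE and 8.59, 9.50 and 15.3 CPM in Ctrl, a fitted change of 0.35 (SE 0.344). Both overlapped between the groups, with the second side lowest in TP53TG1 and highest in PURPL. With the side as a term the change was -0.14 (SE 0.108) in TP53TG1 and 0.08 (SE 0.134) in PURPL, and with the offset for GC content and length that of PURPL was 0.02. PINCR had a fitted change of 0.19 (SE 0.258), and the list had 3 members higher and 1 lower.

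In the list of lincRNAs discussed in lung adenocarcinoma, 10 were members: MALAT1, LUCAT1, CYTOR, LINC00473, LINC00511, CASC15, LINC01116, LINC00941, LINC01133 and LINC00857. None passed the test, 7 were fitted higher, and the median was 0.13. LINC00511 was the steadiest of these by SE, with 46.4, 43.3 and 39.9 CPM in APEX1-OE and 43.7, 44.7 and 41.8 CPM in Ctrl (fitted change -0.01, SE 0.184). LUCAT1, a lincRNA induced by smoke and stress, had 5.01, 9.82 and 10.00 CPM in APEX1-OE and 6.47, 6.74 and 9.07 CPM in Ctrl, with the 3 libraries of the second side highest. Its fitted change of 0.16 (SE 0.320) became -0.11 (SE 0.154) with the side as a term. LINC00941 had a fitted change of 0.29 (SE 0.230) and LINC00473 one of -0.06 (SE 0.272). Of the stress and interferon list, 7 were members with a median of 0.10, and none but NEAT1 had an unadjusted p under 0.05.

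The order of the members by the division of the libraries is a description. The division was drawn from the same genes, members included, so it cannot be weighed against the grouping by plasmid. In 45 members APEX1-OE replicates 2 and 3 and Ctrl replicate 3 lay above the other 3 libraries (17.7%, against 35.5% of all genes tested), and in 73 they lay below (28.7%, against 30.9%). Together 118 members did not overlap between the sides (46.5%), against 66.4% of all genes and 73.0% of protein-coding genes. The members also had fewer counts, with a median of 122 per library against 401 over all genes tested, and the part of depth in this difference was not tested. Their median SD of log2 CPM over the 6 libraries was 0.276, against 0.353 over all genes.

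The highest library exceeded the lowest by a median ratio of 1.69 in the members, and by at least 2 in 67 of them. HIF1A-AS1, which starts 379 bp from HIF1A, had 1.56, 4.33 and 3.87 CPM in APEX1-OE and 2.23, 2.34 and 4.76 CPM in Ctrl. EBLN3 (EBLN3P) had 16.9, 39.6 and 45.7 CPM in APEX1-OE and 19.7, 21.0 and 38.3 CPM in Ctrl. In both, 2 APEX1-OE libraries and 1 Ctrl library were high, and the fitted changes of 0.07 and 0.37 were below their SEs. Within the first and second side the log2 difference was -0.55 and -0.22 in HIF1A-AS1, so its direction turned, and -0.27 and 0.15 in EBLN3.

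The members that lay above in APEX1-OE replicates 2 and 3 and Ctrl replicate 3 had a median GC content of 42.5% (41 with a value), and those that lay below one of 53.7% (71 with a value). Over the 239 tested members with a GC value, the Spearman correlation of a library's deviation with GC content was 0.47, -0.39 and -0.55 in APEX1-OE and 0.32, 0.44 and -0.36 in Ctrl. Genes within a library share its preparation and depth, so these are descriptions over lincRNAs that are not independent. Over all genes the same signs were found, with sizes between 0.61 and 0.78. The signs were alike within each side of the principal component, which was drawn from the same counts, and each group held libraries of both signs.

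**Figure D5:**
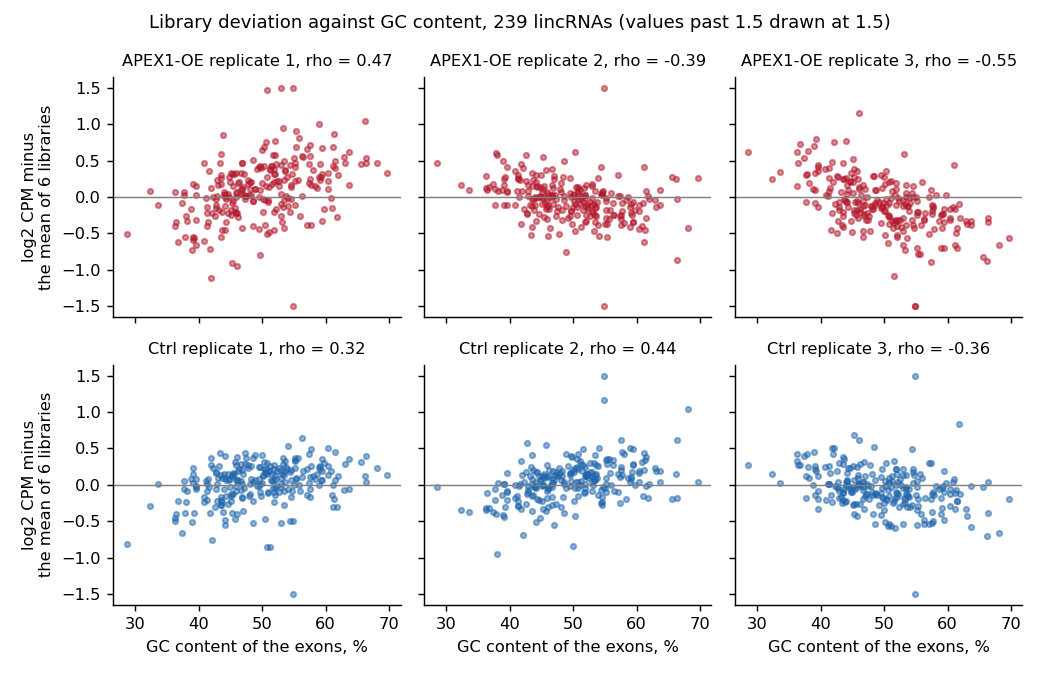
Deviation of each library from the mean of the 6 libraries (log2 CPM) against the GC content of the exons, for 239 lincRNAs, in a panel per library. The cloud rises with GC content in APEX1-OE replicate 1 and Ctrl replicates 1 and 2 and falls in the other 3 libraries.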

How the data were processed

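Stranded polyadenylated RNA libraries of A549 cells, 3 APEX1-OE and 3 Ctrl, were analysed from the tables of the whole series. The authors trimmed reads with the FASTX-Toolkit 0.0.13, aligned them to GRCh38 with tophat2 allowing 4 mismatches, and deposited raw counts of uniquely mapped reads per gene. FPKM values were made by the authors from the same reads and deposited to 2 decimals. No source used here gives the counting tool, the annotation or the use of strand.

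Counts were filtered with filterByExpr (minimum count 10, minimum total 15), scaled with TMM factors, and compared by the edgeR 4.0.16 quasi-likelihood F-test (robust, condition only, R 4.3.3) with Benjamini-Hochberg adjustment at 0.05 over all 16971 genes. CPM are TMM-normalized. A simulation with known changes was used to test the script. DESeq2 1.42.0 and limma 3.58.1 were alternatives. Gene type, exon length and GC content came from GENCODE release 44, matched without identifier versions. Python 3.11.15 and Biopython 1.88 were used for sequences.

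The members and gene lists were chosen with earlier results of these data known. Named lincRNAs are the 15 highest by mean FPKM, the listed members, up to 8 with the largest positive and 8 with the largest negative fit whose groups do not overlap, and those at the boundary of the level. Of the protein lists only called genes, SFPQ, NONO, PSPC1, UPF1, SMG5, EXOSC10 and MTREX are named. RMRP, BCYRN1, RP11-84A19.2, the chromosome 21 copies, HIF1A-AS1, EBLN3, JPX and the members named for their type or hosted miRNA were chosen after their values were seen. Members on chromosome 8 are not named. With 3 libraries a group, exact permutation tests cannot reach 0.05 and none was used.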

Additional observations from a re-analysis of the deposited data

How the results depend on the processing

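The count of called members was 0 in every setting but the one with no filter on low counts, which called 2 members, CH507-513H4.5 (higher) and CH507-513H4.6 (lower), and 10 genes in all. Genes called over the whole table numbered 0 to 1 with a library left out, 2 with the replicate number as a block (replicate block), 4 with the side of the principal component as a term, and 20 with that term and an offset for GC content and length. Deviations of same-numbered libraries correlated at 0.60 for replicates 1, -0.52 for replicates 2 and 0.70 for replicates 3. APEX1-OE replicate 1 correlated better with Ctrl replicate 2 (0.63). No label says whether libraries of the same number were prepared together. These correlations cannot settle it, since their signs follow the sides of the principal component. With the replicate block, 0 members were called, and NEAT1 had a log2 fold change of 0.68 (unadjusted p = 0.000302, adjusted p = 0.682, edgeR).

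With each library left out, APEX1 kept a log2 fold change between 2.36 and 2.46, and its adjusted p (edgeR) rose to 0.118 and 0.0674 without APEX1-OE replicates 2 or 3 and to 0.210 and 0.207 without the Ctrl libraries 1 or 2. The members' median ranged from -0.12 (without APEX1-OE replicate 1) to 0.045 (without APEX1-OE replicate 3). Without NEAT1 the members' mean share of counts was 0.205%. In scalings added after seeing the data, members higher and lower without overlap numbered 9 and 10 (DESeq2 size factors) and 2 and 19 (upper quartile). Members with an unadjusted p under 0.05 numbered 0 to 30 over the settings. The most were found with the side and the offset together, 30 of 254 members beside 2088 of 16971 genes. Of the 44 tested members that are among the highest, listed or without overlap, 24 kept their sign in all settings run. The lowest adjusted p of the 44 was 0.141 (edgeR, with the side and the offset), a description because the side came from these data. NEAT1 lay between 0.44 and 0.90 in its 21 settings.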
